A study of Capra hircus with 6 samples.

Results

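The miR-17 cluster (miR-17, miR-18a, miR-19a, miR-20a, miR-19b and miR-92a), the miR-106b-25 cluster (miR-106b, miR-93 and miR-25) and miR-106a, a member of the related miR-106a-363 cluster, were followed in goat back muscle before and after birth. They were picked by name: a listed name belonged to them when its miRNA, without species prefix, arm, copy number and variant suffix, was one of these 10. All 10 were listed, under 19 distinct names out of 1120, and 9 of the 10 had names from both arms of the hairpin. Each cluster is transcribed as a single RNA that is cut into several hairpins, and each hairpin into a 5p and a 3p strand. The strands recognise target mRNAs mainly through the seed, bases 2 to 8, so members that share a seed share many targets. In mammals the miR-17 cluster, which runs from miR-17 to miR-92a, is activated by the growth regulators MYC and E2F, its products restrain cell cycle inhibitors and the cell death gene BIM, and it is abundant in dividing and embryonic cells. The miR-106b-25 hairpins lie within an intron of MCM7, a gene of DNA replication.

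The libraries hold small RNA of longissimus dorsi, a long back muscle, from goats of the Haimen breed. The fetus group held 3 libraries from day 75 of pregnancy, and the lamb group 3 libraries from animals at 1 day of age; no treatment or genotype is given in the labels. Whether the 3 libraries of a stage are 3 animals is not in the labels, and the p-values therefore reflect only how much these libraries vary, which may be technical. Reads assigned to listed miRNAs numbered 6096009 in the shallowest and 13756954 in the deepest library.

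The sequences decide which members can be told apart, and those of the main strands are therefore shown first, as listed in the deposited table, written 5′ to 3′ with the seed in capitals. The first group carries the seed AAAGTGC; miR-20b, which is no member, is added for comparison.
miR-17-5p: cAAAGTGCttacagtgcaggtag
miR-106a-5p: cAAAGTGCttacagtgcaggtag
miR-20a-5p: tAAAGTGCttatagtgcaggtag
miR-106b-5p: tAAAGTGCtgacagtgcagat
miR-93-5p: cAAAGTGCtgttcgtgcaggtag
miR-20b: cAAAGTGCtcacagtgcaggtag
The second group holds the miR-18 and miR-19 seeds, each of which is carried by few names.
miR-18a-5p: tAAGGTGCatctagtgcagatag
miR-19a: tGTGCAAAtctatgcaaaactga
miR-19b-3p: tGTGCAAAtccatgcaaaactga
The third group carries the seed ATTGCAC, and includes the names on which the identity of miR-92a turns.
miR-25-3p: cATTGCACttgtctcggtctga
miR-92a-3p, mouse entry with 2 bases added: tATTGCACttgtcccggcctgaa
miR-92b, goat entry: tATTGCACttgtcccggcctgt
miR-92b, cattle entry: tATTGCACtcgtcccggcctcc
The last is the 3p strand of miR-106b, which outnumbered the 5p strand in every library.
miR-106b-3p: cCGCACTGtgggtacttgctgc

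The sequence listed as miR-106a-5p was identical with the one listed as miR-17-5p. Its name carries a suffix for 1 substitution against the goat registry entry. Both names had the same value in each of the 6 libraries, such as 2356.67 reads in fetus replicate 1, and the reads of miR-17-5p, miR-106a-5p and miR-20b added up to a whole number (within 0.01) in 5 of 6 libraries. Reads that matched several of these names had thus been divided among them. The values under miR-17-5p and miR-106a-5p are therefore 2 equal portions of the reads of 1 sequence and not separate measurements, and miR-17-5p and miR-20b, which differ by T10C counted from the 5′ end, share part of their reads. The 3p strand of miR-106a, whose sequence is its own, was listed with 5 reads in fetus replicate 3 and with 0 in the other 5 libraries.

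The 3p strand of miR-92a was listed under the name of a mouse entry only. Without its 2 added 3′ bases, that sequence of 21 bases forms the beginning of the sequence that the goat entry calls miR-92b, which adds 1 base. The cattle miR-92b does not begin with it and differs from goat miR-92b by T10C, G21C and T22C. The goat miR-92b name thus begins with the whole miR-92a strand of the mouse entry. By name it lies outside the members, and it is reported here beside them. A platypus miR-92b entry is the other of the 3 listed names that start with the mouse entry; its reads and those of goat miR-92b added up to whole numbers in 5 of 6 libraries. Among RefSeq miRNA genes of the goat assembly ARS1.2, MIR92B lies between MIR363 and MIR20B in the run MIR363, MIR92B, MIR20B, MIR18B, MIR106A, the place that a miR-92a gene holds in human and mouse. The run MIR92A, MIR19B, MIR20A, MIR19A, MIR18A, MIR17 and the run MIR106B, MIR93, MIR25 were likewise each unbroken by other miRNA genes.

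Compared with the registry, 12 of the 19 names (63.2%) matched their entry exactly and 7 did not, against 293 of 1120 names (26.2%) identical in the whole list. Goat entries gave 18 of the 19 member names, and among goat entries 66.7% of member names and 57.8% of all names were identical. By cluster, 6 of 11 names were identical for the miR-17 cluster, 5 of 6 for miR-106b-25 and 1 of 2 for miR-106a. Read from their suffixes, 3 of the 7 differing names were longer and 4 shorter at the 3′ end, and 1 of them, miR-17-3p, also differed at the 5′ end. A change at the 5′ end moves the seed. The suffixes of the member strands printed above give no change of the 5′ end other than the substitution in the miR-106a name.

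The level of the clusters was lower in lambs than in fetuses. Levels are given as normalised CPM (counts-per-million): reads of a name relative to all listed miRNA reads of the library, with library sizes corrected by the trimmed mean method (TMM). A miRNA is read whole, so levels are not divided by length. In bulk tissue, fewer cells that carry a miRNA and less of it per cell cannot be told apart. Summed over its 6 names, the miR-106b-25 cluster stood at 4381, 4228 and 4174 CPM in fetuses and at 2543, 2672 and 3142 CPM in lambs. The groups did not overlap, and the mean level in lambs was 0.61 lower on the log2 scale. The 11 names of the miR-17 cluster summed to 408, 305 and 276 CPM in fetuses and to 241, 171 and 235 CPM in lambs, again without overlap and with a difference of -0.61 on the log2 scale. Goat miR-92b alone, at 10287, 11591 and 11308 CPM in fetuses and 7541, 8009 and 7357 CPM in lambs, exceeded all member names together. With it added, the miR-17 cluster sum was 10696, 11896 and 11583 CPM in fetuses and 7782, 8180 and 7592 CPM in lambs. That sum differed by -0.54 on the log2 scale, but most of it was goat miR-92b. From which gene the reads under goat miR-92b came was not tested. With median-ratio size factors the 2 cluster sums, without goat miR-92b, differed by -0.36 each, and with the authors' normalised values by -0.32 each. These sums can be set beside the median log2 difference of all names tested. The measures are unlike, since that median weighs every name alike and a sum follows its most abundant names. That median was -0.30 with TMM, -0.06 with median ratios and -0.15 with the authors' values. Among names with a mean of at least 10 reads it was -0.13 with TMM.

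Of the 19 names, 18 had a mean of at least 1 read per library and were tested, together with all other names that passed, by edgeR's quasi-likelihood test. At a Benjamini-Hochberg adjusted p under 0.05, 8 of the 18 fell in lambs and 0 rose. In the whole table, 20.5% of the 1048 names tested fell and 9.35% rose, 29.9% in all. Because miR-17-5p and miR-106a-5p are portions of the same sequence, the 8 names stand for 7 sequences. For 10 of the 18, every lamb library lay below every fetal library, against 30.2% of all names; for 1, miR-92a-5p, every lamb library lay above, against 15.2%. The median log2 difference, lamb minus fetus, was -0.86 over the 18 names and -0.30 over all names. The count depended on 4 of the 6 libraries. It was 7 of 19 without lamb replicate 2 (36.8%, against 19.5% of all names) and 8 of 19 without lamb replicate 3 (42.1% against 20.4%). It was 3 of 19 without fetus replicate 1 (15.8% against 14.0%), 2 of 19 without fetus replicate 2 (10.5% against 12.5%), 3 of 18 without fetus replicate 3 (16.7% against 14.4%) and 2 of 19 without lamb replicate 1 (10.5% against 12.4%). In those 4 fits the share of member names that fell was near that of all names.

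**Figure D1:**
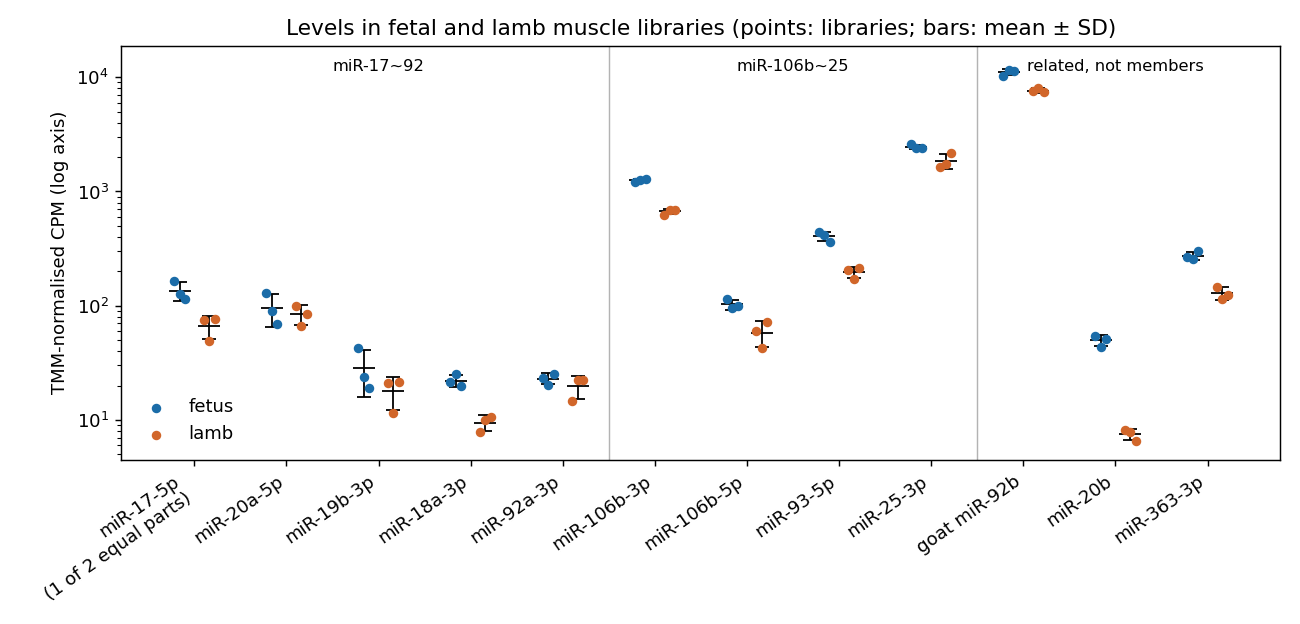
Normalised CPM (log axis) of the more abundant strands and of 3 relatives (goat miR-92b, miR-20b and miR-363-3p) in each library, with 3 fetal and 3 lamb libraries as points and the mean ± SD as black bars; miR-17-5p shows 1 of the 2 equal portions of its sequence, the other being listed as miR-106a-5p. MiR-106b-3p, miR-93-5p and miR-17-5p had all lamb points below all fetal points, whereas miR-20a-5p, miR-19b-3p and miR-92a-3p overlapped between the groups.

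Scaling of the libraries moves all these differences together. The median of all names tested was -0.30 with TMM, -0.06 with median-ratio size factors, -0.58 with library totals and -0.15 with the authors' normalised values. The median of the 18 member names was -0.86, -0.61, -1.14 and -0.59 in the same order, which is 0.56, 0.55, 0.56 and 0.44 below the median of all names. Of all names called, 215 fell and 98 rose with TMM (68.7% fell), 168 fell and 126 rose with median ratios (57.1%), 266 fell and 69 rose with library totals (79.4%), and 202 fell and 159 rose with DESeq2 (56.0%). Of the 18 member names, 5 fell with median ratios (27.8%), against 168 of all 1048 names tested. With library totals 9 fell (50.0%, against 25.4% of all names tested), and 0 rose with either scaling. With DESeq2 7 fell (38.9%, against 19.3%) and 1 rose. With limma on the authors' values, at a pseudocount of 1, 5 fell (27.8%, against 19.1%) and 1 rose. The riser was miR-92a-5p with both DESeq2 and limma. Differences of single members below are TMM values and are best read against the median of -0.30.

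**Figure D2:**
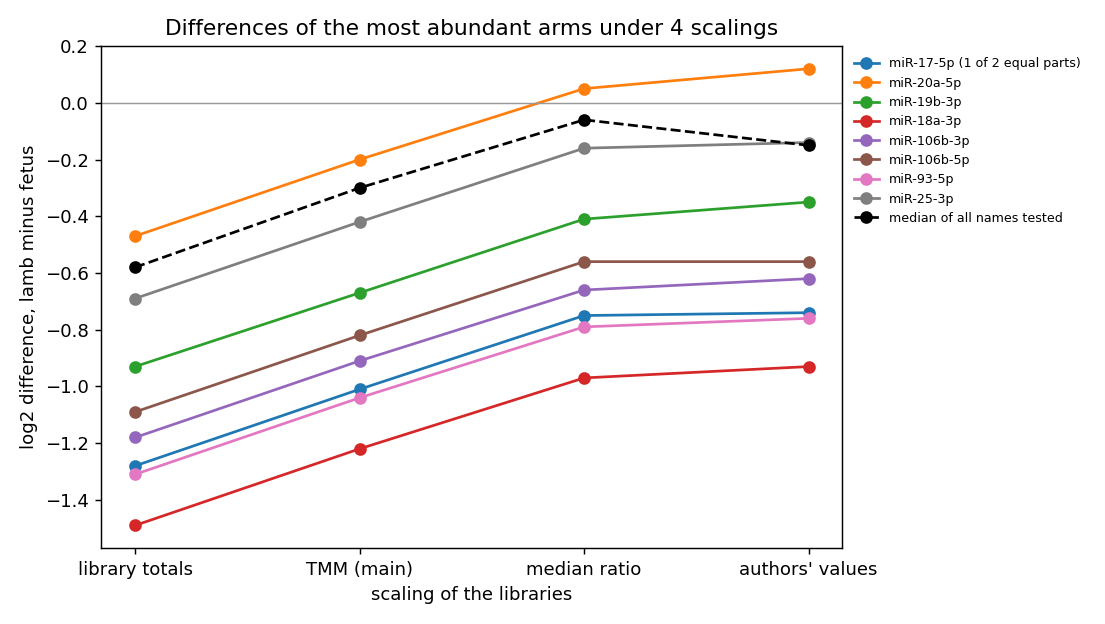
Log2 difference, lamb minus fetus, of 8 strands (coloured lines) and the median of all names tested (black dashed line) under 4 scalings of the libraries. The lines shift together, miR-18a-3p, miR-93-5p and miR-17-5p stay below the dashed line, and miR-20a-5p stays above it and crosses 0.

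Among the members with the AAAGTGC seed, the strands best known for promoting the cell cycle, all but miR-20a-5p fell. MiR-93-5p stood at 442, 414 and 362.76 CPM in fetuses and at 206, 172 and 214 CPM in lambs. The groups did not overlap, and the log2 difference was -1.04 ± 0.18 (standard error, n = 3 per group, edgeR adjusted p = 0.00513). The call was lost without lamb replicate 1 (adjusted p = 0.0758). The sequence shared by miR-17-5p and miR-106a-5p stood at 326, 251 and 231 CPM in fetuses and at 149, 98.5 and 153 CPM in lambs with both portions added. The portion under each name, 163, 126 and 115 CPM in fetuses and 74.4, 49.2 and 76.7 CPM in lambs, was the value tested. It differed by -1.01 ± 0.26 (standard error, edgeR adjusted p = 0.0255), and the call was lost without any 1 of the 3 fetal libraries or without lamb replicate 1 (adjusted p from 0.0342 to 0.153 over the 6 fits). It was also lost with median-ratio size factors (-0.75, adjusted p = 0.092). MiR-106b-5p stood at 114, 95.2 and 98.5 CPM in fetuses and at 59.8, 42.5 and 72.0 CPM in lambs, a difference of -0.82 ± 0.26 (standard error) at the edge of the threshold (edgeR adjusted p = 0.05). The groups did not overlap, but the call was lost in every leave-one-out fit except that without lamb replicate 3 (adjusted p from 0.0364 to 0.299) and with median-ratio size factors (adjusted p = 0.189).

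MiR-20a-5p, which differs from miR-17-5p by C1T and C12T and is encoded in the same cluster, did not pass. It stood at 130, 89.2 and 69.7 CPM in fetuses and at 100.08, 66.8 and 85.1 CPM in lambs. The groups overlapped, and the difference was -0.20 ± 0.30 (standard error, edgeR adjusted p = 0.638). Its sign turned with median-ratio size factors (0.05) and with the authors' normalised values (0.12). The ratio of miR-20a-5p reads to the portion under miR-17-5p does not depend on library size. It was 0.799, 0.71 and 0.604 in fetuses and 1.34, 1.36 and 1.11 in lambs, higher in all 3 lamb libraries (exact two-sided permutation p = 0.10, which is the lowest that this design can reach, and 0.10 after adjustment over 5 ratios). Against both portions of the miR-17-5p sequence it was 0.399, 0.355 and 0.302 in fetuses and 0.672, 0.68 and 0.555 in lambs, so that miR-20a-5p stayed below that sequence in every library. Over the whole table the AAAGTGC seed was carried by 6 names (0.54%): the 5 members and miR-20b. Of these 6, 5 fell, against 20.5% of all names tested. The 5 include miR-17-5p and miR-106a-5p, which are portions of 1 sequence.

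The miR-18 and miR-19 strands of the miR-17 cluster were scarce. MiR-18a-5p, the only member with the AAGGTGC seed, was listed with 141, 54 and 72 reads in fetuses and with 0, 0 and 11 reads in lambs. It fell by 3.99 ± 1.11 on the log2 scale (standard error, edgeR adjusted p = 0.0324), a size that rests on 11 lamb reads. The call was lost without any 1 of the 3 fetal libraries or without lamb replicate 1 (adjusted p from 0.00165 to 0.111), and without lamb replicate 3 all lamb values are 0. A listed 0 need not mean that no read was sequenced. In the 816 rows that hold whole numbers only, the smallest value above 0 was 3, with 11 values under 5 and 217 values of 5. Its partner strand miR-18a-3p was the more abundant, at 21.5, 25 and 19.9 CPM in fetuses and 7.86, 9.95 and 10.6 CPM in lambs. Again the groups did not overlap, and the difference was -1.22 ± 0.27 (standard error, edgeR adjusted p = 0.0136). This call was lost without fetus replicate 2 (adjusted p = 0.0692) or lamb replicate 1 (adjusted p = 0.127). Both strands of this hairpin thus fell.

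The miR-19 strands did not pass. MiR-19b-3p stood at 42.8, 24.0 and 18.9 CPM in fetuses and at 20.9, 11.4 and 21.5 CPM in lambs. The groups overlapped, with fetus replicate 1 high, and the difference was -0.67 ± 0.41 (standard error, edgeR adjusted p = 0.244). MiR-19a, which differs from miR-19b-3p by T11C, was listed with 25, 9 and 13 reads in fetuses and 15, 0 and 0 reads in lambs (adjusted p = 0.604 by edgeR). Without lamb replicate 1, in which all its lamb reads lay, it was called lower (adjusted p = 0.0438). The 5p strand of miR-19b was listed with at most 10 reads in any library.

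**Figure D3:**
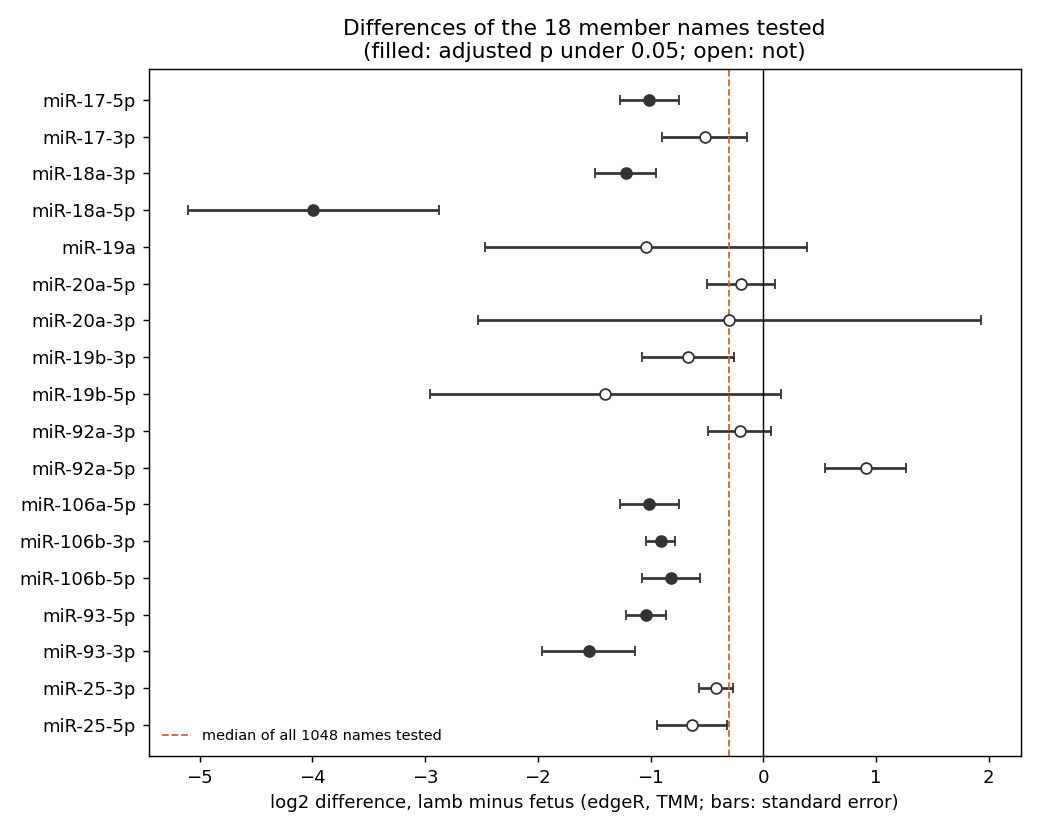
Log2 difference, lamb minus fetus (edgeR with TMM), of the 18 member names tested, with the standard error as bars; filled points had an adjusted p under 0.05, and the dashed line is the median of all names tested. The 8 filled points all lie below the dashed line, miR-20a-5p, miR-92a-3p and miR-20a-3p lie at or to the right of it, and miR-92a-5p is the single point above 0.

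Of the strands with the ATTGCAC seed, goat miR-92b fell while the member names miR-25-3p and miR-92a-3p did not pass. MiR-25-3p, the most abundant member name, of the miR-106b-25 cluster, stood at 2586, 2421 and 2380 CPM in fetuses and at 1628, 1746 and 2155 CPM in lambs. Every lamb library was below every fetal library, but the difference of -0.42 ± 0.15 did not pass (standard error, edgeR adjusted p = 0.0747). It passed without lamb replicate 3 (adjusted p = 0.0266) and with library totals (-0.69, adjusted p = 0.0106). It was smaller without lamb replicate 1 (-0.15, adjusted p = 0.629), with median ratios (-0.16, adjusted p = 0.514) and with limma on the authors' values (-0.14, adjusted p = 0.474). MiR-92a-3p under its mouse name was listed at 23.5, 20.3 and 25.3 CPM in fetuses and at 14.6, 22.4 and 22.6 CPM in lambs. The groups overlapped (-0.21 ± 0.28, standard error, edgeR adjusted p = 0.586), and the sign turned with median ratios (0.04) and with the authors' values (0.05). Goat miR-92b, which begins with the miR-92a sequence, differed by -0.53 ± 0.10 without overlap (standard error, edgeR adjusted p = 0.00853). That call was lost without lamb replicate 1 (adjusted p = 0.175) and with median ratios (-0.29, adjusted p = 0.102), where the median of all names was -0.06. The platypus miR-92b name, which shares divided reads with goat miR-92b, stood at 45.3, 45.1 and 47.5 CPM in fetuses and at 45.7, 51.9 and 50.8 CPM in lambs, and did not pass (0.11 ± 0.21, standard error, edgeR adjusted p = 0.727). The cattle miR-92b, a different sequence with the same seed, stood at 118, 126 and 135 CPM in fetuses and at 105, 89.6 and 234 CPM in lambs, and did not pass (edgeR adjusted p = 0.736). Of the 6 names with this seed in the whole table, 2 fell (against 20.5% of all names tested), goat miR-92b and miR-363-3p.

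The miR-106b hairpin was read mainly from its 3p strand. MiR-106b-3p, whose seed differs from that of the 5p strand, stood at 1208, 1259 and 1289 CPM in fetuses and at 625, 694 and 685 CPM in lambs. Libraries of the same stage lay close together and far from the other stage, and the difference was -0.91 ± 0.13 (standard error, edgeR adjusted p = 0.00261). It kept its call in 5 of 6 leave-one-out fits and with median ratios, and lost it without lamb replicate 1 (adjusted p = 0.0683). MiR-93-3p, the minor strand of its hairpin, was listed with 229, 217 and 142 reads in fetuses and 73, 19 and 42 reads in lambs, on average 16.9 and 5.72 CPM. It fell by 1.55 ± 0.41 on the log2 scale (standard error, edgeR adjusted p = 0.0274), a call lost without any 1 of the 3 fetal libraries or without lamb replicate 3 (adjusted p from 0.0242 to 0.104). MiR-25-5p, at 15.5, 18.3 and 27.8 CPM in fetuses and 14.7, 13.7 and 11.3 CPM in lambs, did not pass (edgeR adjusted p = 0.18). Of the 6 strands of this cluster, 4 fell (against 20.5% of all names tested), and the 2 that did not pass were both from miR-25. This split rests on the threshold, with an edgeR adjusted p of 0.05 for miR-106b-5p and 0.0747 for miR-25-3p.

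The minor strands of the miR-17 cluster were few. MiR-92a-5p was the only member with a higher level in lambs, at 12.3, 6.93 and 7.33 CPM against 3.74, 5.07 and 5.30 CPM in fetuses. The groups did not overlap, and the difference of 0.91 ± 0.36 did not pass with edgeR (standard error, adjusted p = 0.102), but did with DESeq2 (1.16, adjusted p = 0.025) and with limma on the authors' values (1.15, adjusted p = 0.0473). MiR-17-3p stood at 10.2, 9.58 and 11.1 CPM in fetuses and at 7.25, 4.09 and 10.1 CPM in lambs, with overlap (edgeR adjusted p = 0.312). MiR-20a-3p was listed with 11 reads in fetus replicate 1 and 5 in lamb replicate 1, and with 0 elsewhere.

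Strand choice within the hairpins was compared through the ratio of 5p to 3p reads. It was fitted with limma on log2((5p + 1)/(3p + 1)) for all 171 miRNAs with both arms. None of the 9 members with both arms passed an adjusted p of 0.05, whereas 19.9% of the 171 did (61 of 171 at an unadjusted p under 0.05). The 3p reads of miR-106b outnumbered its 5p reads by 9.5 to 16.3 times over the 6 libraries, and its ratio did not pass (log2 ratio difference 0.06 ± 0.25, standard error, limma adjusted p = 0.935). MiR-25 was read from the 3p strand 85.5 to 188 times more often, and miR-93 from the 5p strand 20.6 to 48.5 times more often. The log2 ratio of miR-18a was -1.13, -2.31 and -1.40 in fetuses and -6.02, -5.83 and -2.97 in lambs, without overlap. In lamb replicates 1 and 2 the 5p strand was at 0, so these ratios are set by the added count of 1 and the number of 3p reads. Its difference of -3.33 ± 0.93 did not pass (standard error, limma adjusted p = 0.0599). It passed without lamb replicate 3 and with a pseudocount of 10, and miR-93 passed without lamb replicate 1 (adjusted p = 0.0453). The ratio of miR-92a, computed from the listed names, leaves out the reads under goat miR-92b.

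**Figure D4:**
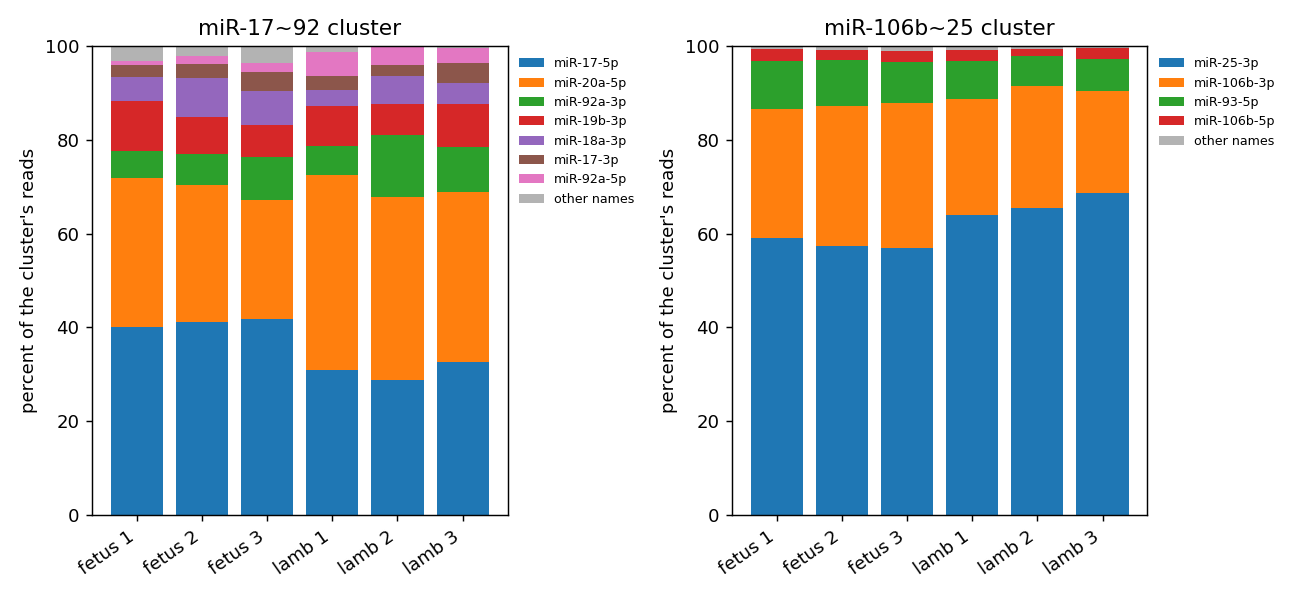
Share of each cluster's reads, in percent, taken by each strand in the 6 libraries, with names under 2% on average pooled as other names; goat miR-92b and the portion under miR-106a-5p are not included. In the miR-17 cluster the mean miR-17-5p share was 41.0% in fetuses and 30.8% in lambs while that of miR-20a-5p was 28.8% and 39.0%, and in miR-106b-25 that of miR-25-3p was 57.8% and 66.0%.

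The make-up of each cluster was compared through shares. Shares of a cluster's reads do not depend on library scaling. Of the reads under names of the miR-17 cluster, 41.0% ± 0.967 in fetuses against 30.8% ± 1.91 in lambs were miR-17-5p (SD, n = 3 each). MiR-20a-5p took 28.8% ± 3.32 before birth against 39.0% ± 2.71 after it (SD, n = 3 each). Neither share overlapped between stages. Which of the strands leads in lambs depends on how the shared reads are counted. With the portion under miR-106a-5p added to the cluster, the miR-17-5p sequence held 58.2% ± 0.974 in fetuses and 47.0% ± 2.24 in lambs, and miR-20a-5p 20.4% ± 2.49 and 29.8% ± 2.30 (SD, n = 3 each). In miR-106b-25, miR-25-3p made up 57.8% ± 1.09 and 66.0% ± 2.34, and miR-106b-3p 29.4% ± 1.69 and 24.1% ± 2.11, in fetuses and lambs respectively (SD, n = 3 each). The ratio of miR-25-3p to miR-93-5p reads was 5.85, 5.84 and 6.56 in fetuses and 7.91, 10.1 and 10.1 in lambs. That of miR-25-3p to miR-106b-3p was 2.14, 1.92 and 1.85 in fetuses and 2.60, 2.52 and 3.14 in lambs. That of miR-18a-3p to miR-20a-5p was 0.165, 0.28 and 0.285 in fetuses and 0.0785, 0.149 and 0.125 in lambs. None of these 3 ratios overlapped between stages (exact two-sided permutation p = 0.10 for each, and 0.10 after adjustment over 5 ratios). With 3 libraries a stage none can pass. The 5 pairs were not planned beforehand, and the adjustment does not cover how they were picked.

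Of the relatives in the miR-106a-363 cluster, miR-20b and miR-363-3p fell as well. Of the 10 names of miR-18b, miR-20b, miR-363 and miR-92b, 9 were tested, 3 fell (33.3%, against 20.5% of all names) and 0 rose (against 9.35%), with a median log2 difference of -1.09 against -0.30 for all names. MiR-20b, which carries the AAAGTGC seed, stood at 54.6, 43.4 and 51.6 CPM in fetuses and at 8.1, 7.82 and 6.53 CPM in lambs. Its difference of -2.73 ± 0.26 passed in the full fit (standard error, edgeR adjusted p = 0.00043) and in all 6 leave-one-out fits, although part of its reads were divided with miR-17-5p. MiR-363-3p, which carries the ATTGCAC seed, stood at 264, 258 and 300 CPM in fetuses and at 147, 115 and 125 CPM in lambs (-1.09 ± 0.19, standard error, edgeR adjusted p = 0.00513), and also passed in all 6. The ratio of miR-20b to miR-363-3p reads was 0.206, 0.169 and 0.172 in fetuses and 0.0553, 0.068 and 0.052 in lambs (exact two-sided permutation p = 0.10, and 0.10 after adjustment).

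Other miRNAs tied to growth were compared as lists. Of 28 tested names of a list with the miR-15 and miR-16 family (miR-195, miR-424, miR-497 and miR-503 included), miR-34, miR-21, miR-221 and miR-222, 9 fell (32.1%, against 20.5% of all names) and 3 rose (10.7%, near the 9.35% of all names), with a median log2 difference of -0.76. MiR-424-3p stood at 1072 ± 24.0 CPM in fetuses and 483 ± 54.2 CPM in lambs (SD, n = 3 each, edgeR adjusted p = 0.00165). MiR-16a-5p, from a family that restrains cyclins, rose from 605 ± 43.4 to 946 ± 99.6 CPM (SD, n = 3 each, edgeR adjusted p = 0.0187), a call lost without any 1 of the 3 fetal libraries (adjusted p up to 0.0768). Of 26 tested names of let-7 and miR-98, which accumulate as tissues mature, 2 fell and 2 rose (7.69% each, both below the shares of all names), with a median log2 difference of 0.15.

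Markers of muscle and of other cells also differed between the stages, and their part in the results above was not tested. The 14 names of the striated muscle list summed to 56965 to 70936 CPM in fetuses and to 221351 to 299741 CPM in lambs. Of 13 tested names, 4 rose (30.8%, against 9.35% of all names) and 1 fell (7.69%, against 20.5%). MiR-133a, miR-1 and miR-206 were present in every library, while miR-208a, a heart miRNA, was at 0 in 5 of 6 libraries. MiR-499, of slow muscle and heart, was lower in lambs, at 778, 503 and 492 CPM in fetuses and 336, 239 and 307 CPM in lambs. The 10 blood cell names summed to 336 to 438 CPM in fetuses and to 660 to 1206 CPM in lambs. Of these 10, all tested, 2 were lower, a share near the 20.5% of all names, and 2 were higher, against 9.35%. The higher sum came from miR-150 of lymphocytes, at 42.2, 55.7 and 66.3 CPM in fetuses and 651, 1033 and 474 CPM in lambs. MiR-451 of red blood cells stood at 115 to 241 CPM in fetuses and 58.2 to 108 CPM in lambs. Also lower in lambs were miR-155 (118 to 165 CPM in fetuses, 52.8 to 73.1 CPM in lambs), miR-142 (3.53 to 3.59 and 0.737 to 2.98 CPM) and miR-144 (6.99 to 8.52 and 2.58 to 6.04 CPM). MiR-223 was higher in lambs (1.14 to 3.5 and 4.62 to 12.1 CPM). The blood list thus moved in both directions. The 3 names of endothelial miR-126 summed to 1692 to 2238 CPM in fetuses and 3403 to 3540 CPM in lambs. All 3 were tested, with 2 higher (66.7%, against 9.35% of all names) and 0 lower (against 20.5%). The 11 names of the stromal and smooth muscle list summed to 37697 to 46048 CPM in fetuses and 19712 to 29829 CPM in lambs. All 11 were tested, with 4 lower (36.4%, against 20.5% of all names) and 3 higher (27.3%, against 9.35%). Lower in lambs were miR-199a (26916 to 33298 CPM in fetuses, 8163 to 16950 CPM in lambs) and miR-214 (4059 to 6430 and 1236 to 1762 CPM). Higher in lambs were miR-143 (3956 to 6109 and 7769 to 8359 CPM) and miR-145 (1671 to 1947 and 2478 to 3193 CPM). No marker miRNA was at 0 in every library.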

How the data were processed

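Small RNA libraries were prepared with a TruSeq kit, size-selected on a gel and sequenced on an Illumina HiSeq, per the labels' protocols. For the aligner, the registry release and the minimum for listing the sources used here give nothing, and the submitters' processing notes name only mm9, a mouse build, so no coordinates are printed. The authors deposited expected counts per listed name and library, in which reads matching several names are divided (88.0% of values are whole), and a normalised signal that is the count times 1 constant per library. A deposited list gives the class of each name against miRBase. All 1119 rows of the comparison table that hold values were used; 1 row is not used here.

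Counts were rounded and tested with edgeR 4.0.16 (TMM, quasi-likelihood, names with a mean of at least 1 read, 1048 tested, Benjamini-Hochberg over all). The standard error is the log2 difference divided by the square root of F. Arm ratios were fitted with limma 3.58.1. DESeq2 1.42.0, limma on the authors' values, other scalings and filters, leaving out libraries and the replicate number as a block were alternatives. The fits were tested on simulated data. No pair of replicates agreed within sampling noise (chi-square per degree of freedom at least 104). Members, lists and tests were chosen with earlier results of these data known. For each member and arm the name with the highest mean level is given in full; from each list at most 3 names that passed may be named. Sequences are those of the deposited table. RefSeq ARS1.2 gave gene order only. Intervals are not given for counts, so precision rests on the spread between libraries. Tables were handled with pandas 2.3.3, and exact tests run with scipy 1.17.1 under Python 3.11.15.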

Additional observations from a re-analysis of the deposited data

How the results depend on the processing

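The number of names called in the whole table, 313, was 198 with the replicate number as a block and from 186 to 324 with 1 library left out, and stayed within 1.5 times under the other alternatives. The number of member names called, 8, was 5 without a filter on low counts, 5 with median-ratio size factors and 3 with the replicate block, and from 2 to 8 with 1 library left out. Without the filter 26.3% of member names fell, against 17.0% of all names tested. With median ratios 27.8% fell, against 168 of 1048 names. With the block 16.7% fell, against 13.3% of all names, so the member share was near that of all names there. The labels do not say whether the replicate numbers pair the libraries. After subtracting each stage's mean, the correlations between libraries of equal number were 0.17, 0.301 and -0.319. Between libraries of unequal number they ranged from -0.548 to 0.464. With 3 libraries a stage these correlations cannot decide whether the libraries are paired. MiR-106b-3p, miR-93-5p and miR-18a-3p passed with the block. The miR-17 cluster sum differed by -0.32 with the authors' values, the miR-106b-25 sum by -0.36 with median ratios, -0.89 with library totals and -0.32 with the authors' values, and the sum of AAAGTGC members (-0.89) by -0.63, -1.16 and -0.59 in that order. The ATTGCAC members (-0.42) differed by -0.16, -0.69 and -0.12, and all members (-0.62) by -0.37, -0.90 and -0.33. With 1 library left out the sums kept their sign. Arm ratios called, 34, were 53 with a pseudocount of 10, 14 with the replicate block, and from 13 to 39 with 1 library left out.

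The sign turned for miR-20a-5p with median ratios and DESeq2 (0.05 each), summed names (0.04), limma on the authors' values (0.12 with each pseudocount), without fetus replicate 1 (0.08) and without lamb replicate 2 (0.02), with leave-one-out values from -0.39 to 0.08. For miR-92a-3p it turned under the same scalings (0.04, 0.04, 0.03 and 0.05) and without lamb replicate 1 (0.14). For miR-20a-3p it turned without fetus replicate 1 (3.94), lamb replicate 2 (0.29) and lamb replicate 3 (0.34), with leave-one-out values from -4.36 to 3.94. The cause of these changes was not tested. Library totals, the pseudocount of 1 on the authors' values and the inclusion of goat miR-92b or of the miR-106a-5p portion (-0.72 for the miR-17 cluster sum) were chosen after seeing the data. The read ratios between different miRNAs were not planned beforehand. Depth limits miR-18a-5p, miR-19a and the minor strands, which rest on few reads.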
